A study of Rattus norvegicus with 6 samples.

Results

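The imprinted Dlk1-Dio3 locus carries one of the largest clusters of microRNA (miRNA) genes in mammals. Its miRNAs were followed here on arrays of rat kidney, with and without aristolochic acid (AA). The members were the probes whose rat name carries 1 of 39 miRNA numbers of the locus, on any arm, with star names left out. This rule found 43 probes of 5560 miRNA probes in all. Each member sat on 2 spots per array. Of the 43 members, only rno-miR-494 reached the detection intensity of 32 in the deposited values. No member passed the adjusted p threshold between AA and control.

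Kidney RNA came from male Fisher 344 rats carrying the Big Blue transgene, 1 array per animal. Strain, sex, transgene, tissue and an age of 6 weeks at the start were shared by all 6 animals. The 3 AA rats were given the sodium salt of AA, a nephrotoxic plant acid whose metabolites bind DNA. The dose was 10.0 mg/kg by gavage, at 5 doses per week over 12 weeks, starting at an age of 6 weeks, and kidneys were removed 1 day after the final dose. The 3 controls were untreated, and the labels name no vehicle. The RNA was that of a piece of whole kidney, so fewer cells of a type and less miRNA per cell cannot be told apart.

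In an imprinted locus, each gene is read from only the maternal or only the paternal chromosome. The Dlk1-Dio3 locus holds the paternally expressed protein genes Dlk1, Rtl1 and Dio3 and the maternally expressed long RNAs Meg3, Rian and Mirg. Its miRNAs are cut from the maternal transcripts, and they are known for high levels in embryo, placenta and brain. A miRNA finds its target messenger RNAs mainly through its seed, the bases 2 to 8 from its 5′ end.

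All 43 members belonged to miRNA genes that lie between Dlk1 and Dio3 on chromosome 6 in the RefSeq annotation of GRCr8. The annotation has 59 miRNA genes there, and 39 of them had a member. Gene order is given here without coordinates, because no genome build is named for the array. For 42 members the target was identical to a RefSeq mature sequence, and the target of rno-miR-136 lay inside the Mir136 hairpin. Targets were 18 to 25 bases long with a GC content between 23.8% and 68.2% (median 45.5%). No seed was shared between members, as the 43 seeds were all different.

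The sequences shown first are those of members well above background, as defined below, on at least 3 arrays. To these is added rno-miR-485*, the only star probe of the same miRNA numbers that reached an intensity of 32. Capitals mark the seed. They are the array's targets, all identical to a RefSeq mature sequence, which for rno-miR-485* is the one named rno-miR-485-3p.
rno-miR-494: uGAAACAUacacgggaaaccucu
rno-miR-134: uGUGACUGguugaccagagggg
rno-miR-382: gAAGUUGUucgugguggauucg
rno-miR-433: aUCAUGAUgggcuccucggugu
rno-miR-665: aCCAGGAGgcugaggucccuua
rno-miR-485*: cAUACACGgcucuccucucuuc

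A further set is shown because its members had an unadjusted p under 0.05 between AA and control when the filter on low signal was lifted, as did rno-miR-134. Capitals again mark the seed.
rno-miR-495: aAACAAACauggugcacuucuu
rno-miR-487b: aAUCGUACagggucauccacuu
rno-miR-431: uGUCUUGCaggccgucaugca
rno-miR-127: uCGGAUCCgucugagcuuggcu
rno-miR-668: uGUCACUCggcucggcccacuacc
rno-miR-496: aGUAUUACauggccaaucucc
rno-miR-412: cUUCACCUgguccacuagccgu
rno-miR-411: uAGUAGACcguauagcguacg

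The arrays were not equally bright. AA replicate 20 was the dimmest, with a mean probe signal of 149 above the empty spots where the remaining arrays had 263 to 484. On it 15.5% of all probes were well above background, against 19.3% to 30.2% elsewhere. Well above background means a scanner signal over 3 robust SDs higher than the empty-spot median of that array. Between 0.178% and 1.60% of the empty spots of an array passed that limit. The tissue label was checked against miRNAs known from kidney epithelium. Of 8 such probes, 6 reached 32 on all arrays, namely miR-192, miR-194, miR-200a, miR-200b, miR-200c and miR-429, while miR-204 and miR-215 reached it on none. The endothelial miR-126 also reached it on every array. Of 4 leukocyte probes miR-150 did so, while miR-142-3p, miR-142-5p and miR-223 reached it on none, with 17.4 for miR-223 as their highest value. The neuronal miR-9 and miR-124 stayed below it.

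By count, detection in kidney was rarer among the members than on the array as a whole. In the deposited normalized intensity, 1 of 43 members (2.33%) reached 32 on at least 1 array, and the same member did so on all 6. Among the 636 probes with a rat name that are no members, 179 (28.1%) did so on 1 array or more, and 100 (15.7%) on every array. Over all 5559 probes of the deposited table the shares were 20.3% and 10.2%. These shares are descriptions with no test. Of the 42 members below 32 on every array, 9 had a highest value over 10 and 33 stayed under 10 on all arrays.

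**Figure D1:**
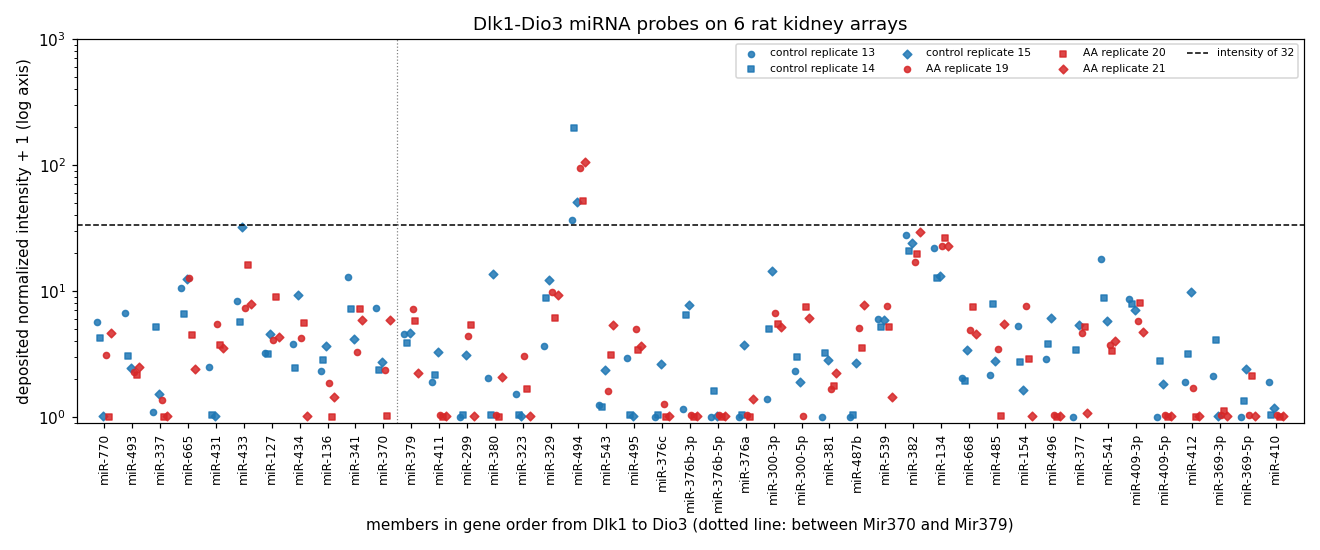
The deposited normalized intensity plus 1 (log axis) is plotted for the 43 members in gene order, with 1 point per array, blue for control and red for AA. The dashed line marks an intensity of 32, and only miR-494 lies above it, on all 6 arrays.

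A lower bar gave more members. Well above background were 13 of 43 members (30.2%) on at least 1 array, against 307 of the 636 other rat probes (48.3%) and 37.6% of all probes. The remaining 30 members were not well above background on any array. The 2 members above it on all 6 arrays were rno-miR-494 and rno-miR-134, or 4.65% of the members against 17.8% of the other rat probes. Next came rno-miR-382 on 5 arrays, rno-miR-433 and rno-miR-665 on 3 each, and rno-miR-329 on 2. A further 7 members passed on 1 array only: rno-miR-127, rno-miR-379 and rno-miR-539 on AA replicate 19, rno-miR-341 and rno-miR-541 on control replicate 13, and rno-miR-380 and rno-miR-300-3p on control replicate 15. Values of single arrays are given from here on in the order of replicates 13, 14, 15 for control and 19, 20, 21 for AA. The members above background numbered 6, 3 and 8 in controls and 9, 3 and 3 in AA. Those were 14.0%, 6.98% and 18.6% of the members in controls and 20.9%, 6.98% and 6.98% in AA. Of all probes, 25.2%, 23.9% and 24.1% were above background in controls and 30.2%, 15.5% and 19.3% in AA. The limit lay between 9.18 (AA replicate 19) and 32.2 (control replicate 13) over the empty-spot median. AA replicate 20, the dimmest array, shared the lowest number of members with control replicate 14 and AA replicate 21.

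**Figure D2:**
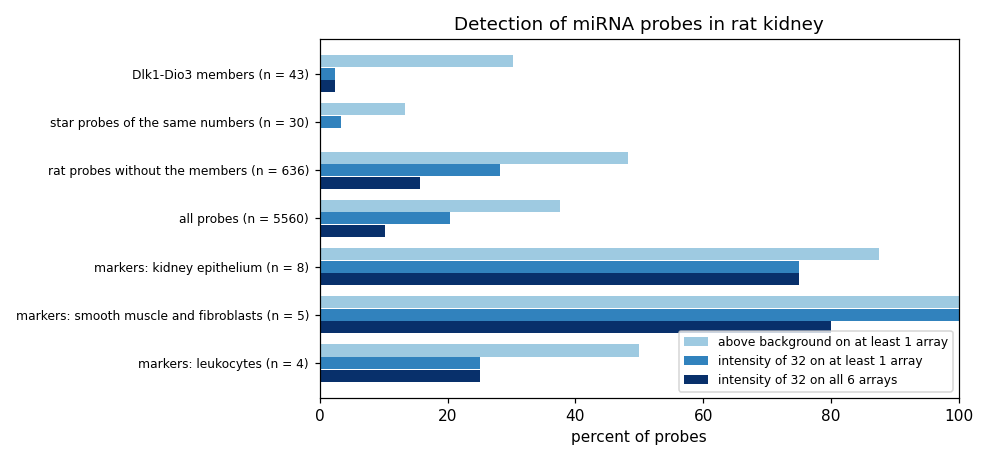
Bars give the percent of probes in each list that were well above background on at least 1 array, or at an intensity of 32 on at least 1 array or on all 6. The Dlk1-Dio3 members have 30.2%, 2.33% and 2.33%, below the rat probes without the members in all 3 measures.

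rno-miR-494 was the only member of the locus at the detection intensity. Its deposited intensity was 35.2, 193.6 and 50.0 in controls and 92.9, 50.7 and 104 in AA. The groups overlapped, with the highest and the lowest value both in controls. Before normalization, its scanner signal exceeded the empty-spot median by 97.6, 221 and 40.3 in controls and by 230.2, 20.7 and 82.4 in AA. In that signal the highest array was AA replicate 19, so the order of arrays depended on the normalization.

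On the normalized log2 scale rno-miR-494 averaged 7.20 ± 0.74 (SD, n = 3) in controls and 7.25 ± 0.43 (SD, n = 3) in AA. The difference of 0.05 had an SE of 0.43 and a 95% interval from -0.97 to 1.07, with an adjusted p of 0.961 in limma. This interval spans differences of about 1 log2 unit in either direction, so a change of about that size was not excluded by these arrays. Leaving out single arrays moved the difference between -0.18 (without control replicate 13) and 0.47 (without control replicate 14). It was below 0 as well when control replicate 15, AA replicate 19 or AA replicate 21 was out.

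A second probe bears on rno-miR-494. The hsa-miR-494 probe has a target 1 base shorter that lies wholly inside the rat sequence, so both probes can bind the same miRNA. Its deposited intensity was 29.1, 152 and 9.85 in controls and 54.4, 50.5 and 60.5 in AA. It reached 32 on 4 of 6 arrays, and its highest array was again control replicate 14. The difference between AA and control was 0.12 on the log2 scale (SE 0.42, adjusted p = 0.937 in limma).

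rno-miR-134, known from neurons where it acts in dendritic spines, stayed below 32 but was well above background on all arrays. Its deposited intensity was 20.8, 11.6 and 12.1 in controls and 21.6, 25.1 and 21.8 in AA. Every AA value lay above every control value, though control replicate 13 and AA replicate 19 were close. Before normalization its scanner signal exceeded the empty spots by 63.4, 14.1 and 13.7 in controls and by 36.3, 18.0 and 19.5 in AA. There the groups overlapped, and control replicate 13 was the highest of all.

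rno-miR-382 had a deposited intensity of 26.6, 19.8 and 23.1 in controls and 15.8, 18.4 and 28.0 in AA. Its groups overlapped, and both its lowest and its highest value were in AA. rno-miR-433, described in renal fibrosis, had 7.34, 4.64 and 31.0 in controls and 6.36, 15.0 and 6.91 in AA. The value of 31.0 on control replicate 15 was the closest to 32 among the members below it, and the next highest of rno-miR-433 was 15.0 on AA replicate 20. On control replicate 15 the 2 spots of rno-miR-433 read 82.3 and 94.5 on the scanner, where the empty-spot median was 57.2.

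**Figure D3:**
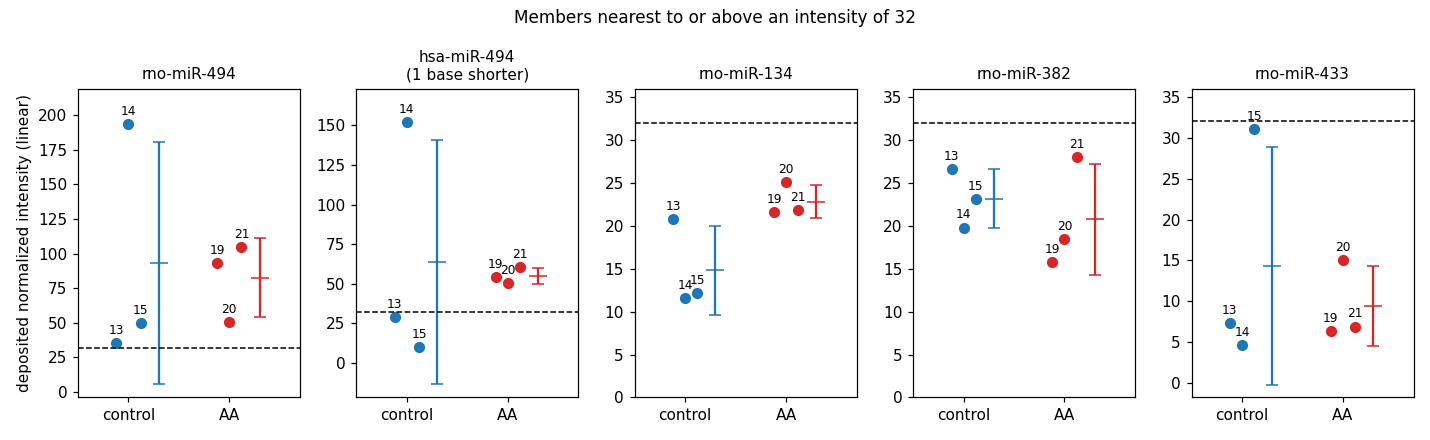
Deposited normalized intensity (linear axis, a separate scale in each panel) is shown per array for rno-miR-494, the shorter hsa-miR-494 probe, rno-miR-134, rno-miR-382 and rno-miR-433, with replicate numbers beside the points and bars for mean ± SD (n = 3). The dashed line is an intensity of 32. AA and control overlap in every panel but that of rno-miR-134, where AA spans 21.6 to 25.1 and control 11.6 to 20.8.

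By position, the members fell into 2 stretches. The 11 members on the side of Meg3 and Rtl1 run from rno-miR-770 to rno-miR-370. They are followed by 127 annotated genes, 89 of them small nucleolar RNA genes or pseudogenes, before the 32 members from rno-miR-379 to rno-miR-410. Well above background on at least 1 array were 4 of 11 on the first stretch and 9 of 32 on the second.

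On the Meg3 side, rno-miR-431, rno-miR-433, rno-miR-127, rno-miR-434 and rno-miR-136 are known to lie antisense to Rtl1, whose messenger RNA they cut. Apart from rno-miR-433, their deposited intensity ranged from 0.015 to 4.41 for rno-miR-431, from 2.15 to 7.86 for rno-miR-127, from 0.014 to 8.27 for rno-miR-434 and from 0.004 to 2.62 for rno-miR-136. The remaining 6 of this stretch were rno-miR-665 with 1.38 to 11.6, rno-miR-341 with 2.25 to 11.8, rno-miR-370 with 0.005 to 6.30, rno-miR-493 with 1.14 to 5.60, rno-miR-770 with 0.004 to 4.62 and rno-miR-337 with 0.003 to 4.17. None of these ranges came near 32.

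On the Mir379 side, 4 members besides those above had a highest value over 10. These were rno-miR-541 at 16.8 on control replicate 13, and rno-miR-300-3p at 13.4, rno-miR-380 at 12.6 and rno-miR-329 at 11.2, all 3 on control replicate 15. Counting rno-miR-665 and rno-miR-341, the 9 members between 10 and 32 were thus rno-miR-433, rno-miR-382, rno-miR-134, rno-miR-541, rno-miR-300-3p, rno-miR-380, rno-miR-329, rno-miR-341 and rno-miR-665. For 4 of these the highest array was control replicate 15.

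The others of that stretch stayed under 10 on all arrays. The miR-376 family, known for A-to-I editing in the seed, had highest values of 2.73 for rno-miR-376a, 6.78 for rno-miR-376b-3p, 0.596 for rno-miR-376b-5p and 1.60 for rno-miR-376c. Of rno-miR-377, described in mesangial cells of the kidney, the highest value was 4.31. The highest values of rno-miR-379, rno-miR-411, rno-miR-299, rno-miR-323, rno-miR-543 and rno-miR-495 lay between 2.01 for rno-miR-323 and 6.20 for rno-miR-379. Those of rno-miR-300-5p, rno-miR-381, rno-miR-487b, rno-miR-539, rno-miR-668, rno-miR-485 and rno-miR-154 lay between 2.21 for rno-miR-381 and 6.82 for rno-miR-485. Those of rno-miR-496, rno-miR-409-3p, rno-miR-409-5p, rno-miR-412, rno-miR-369-3p, rno-miR-369-5p and rno-miR-410 lay between 0.881 for rno-miR-410 and 8.76 for rno-miR-412.

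Other probes of the locus gave a like picture, with 1 exception on the star arms. A star names the arm of the hairpin that was thought to be the lesser product. Of 30 star probes of the same miRNA numbers, only rno-miR-485* reached 32, on 5 of 6 arrays. Its deposited intensity was 44.4, 51.3 and 78.4 in controls and 28.2, 109 and 44.6 in AA. The groups overlapped, with the lowest and the highest value both in AA, and the difference was 0.13 on the log2 scale (SE 0.35, adjusted p = 0.936 in limma). The member rno-miR-485, from the other arm of this hairpin, was not well above background on any array.

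Of 7 probes for further miRNAs of the locus, 1 reached 32, rno-miR-667 at 41.7 on control replicate 15 only. Of 5 probes for miRNAs of other imprinted loci, rno-miR-296 and rno-miR-298 of Gnas, rno-miR-335 of Mest, rno-miR-483 of Igf2 and rno-miR-675 of H19, none did. Their highest value was 21.9, for rno-miR-298 on AA replicate 20.

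The comparison of AA with control asked whether AA changed the miRNAs of the locus. With the filter at 32, 1132 probes were tested and rno-miR-494 was the only member among them. It was past neither the adjusted p of 0.05, which 0.177% of the tested probes were, nor the unadjusted p of 0.05, which 4.95% were. Its groups overlapped, while 9.98% of the tested probes had groups that did not. The other 42 members had no test under this filter.

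For a view of all 43 members, the filter was lifted and the fit was run over the 5560 probes. At this signal the fold change is understated, because the background correction adds an offset of 50 to every spot. No member passed the adjusted p of 0.05 in limma, against 0.0360% of all probes. At an unadjusted p under 0.05 there were 9 members (20.9%), against 8.83% of all probes and 8.97% of the 3467 probes that were not well above background on any array. Of the 9, 7 were themselves not well above background on any array. They were 7 of the 30 such members (23.3%), to be set against the 8.97%.

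The log2 change was above 0 for 21 of 43 members, with a median of -0.00069 against 0.0098 over all probes. AA and control arrays did not overlap for 10 members (23.3%), against 18.6% of all probes. AA was above control for 7 of the 43 members, against 10.1% of all probes, and below for 3 of the 43, against 8.53%. An exact permutation test of 3 against 3 cannot give a two-sided p below 0.1, and these 10 members had that value.

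Among the 9, 6 members had higher values in AA, or 14% of the 43 members against 4.23% of all probes at that p. The other 3 of the 43 had lower values, against 4.60% of all probes. The higher ones were rno-miR-127, rno-miR-487b, rno-miR-134, rno-miR-495, rno-miR-431 and rno-miR-668, by 0.23, 0.20, 0.18, 0.17, 0.12 and 0.12 on the log2 scale. The lower ones were rno-miR-412, rno-miR-496 and rno-miR-411, by -0.19, -0.13 and -0.12. Their adjusted p in limma was 0.547 for all but rno-miR-134 and rno-miR-668, where it was 0.549. None of these differences passed the adjusted threshold.

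The largest of them by size was that of rno-miR-127, which is conserved across mammals. Its normalized log2 signal averaged 6.09 ± 0.030 (SD, n = 3) in controls and 6.32 ± 0.15 (SD, n = 3) in AA, with an SE of the difference of 0.082. It was well above background on 1 array only, AA replicate 19, so no fold is given. On that array its 2 spots read 88.0 and 61.2 on the scanner, where the limit was 59.1. In the deposited values its groups overlapped, with 2.21, 2.15 and 3.53 in controls and 3.10, 7.86 and 3.30 in AA. No fold is given either for the other 6 members that were well above background on 1 array. Of these, rno-miR-541 had every AA array below every control array in the deposited values, but its groups overlapped on the normalized log2 scale. The rest overlapped in the deposited values. The share of all probes without overlap was not counted in those values.

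For rno-miR-134, the only one of the 9 above background on all arrays, the log2 signal averaged 6.37 ± 0.10 (SD, n = 3) in controls and 6.56 ± 0.073 (SD, n = 3) in AA, with an SE of the difference of 0.070. Without normalization the difference was -0.077. Markers of smooth muscle and fibroblasts had a summed intensity of 2520 to 3794 in controls and 3483 to 4973 in AA. All 5 were at 32 or more on at least 1 array. In the deposited values every AA array lay above every control array for miR-199a-3p and miR-214. Their adjusted p in limma was 0.871 and 0.885. The groups overlapped for miR-143, miR-145 and miR-199a-5p. Markers of leukocytes summed to 323 to 525 in controls and 516 to 576 in AA. The defining miR-142-3p and miR-142-5p were at 4.12 and 4.82 at most. Markers of kidney epithelium summed to 5001 to 5361 in controls and 5368 to 6488 in AA. In the sum of this list alone of the 7 did every AA array lie above every control array. The margin was narrow, with 5368 on AA replicate 19 against 5361 on control replicate 15. Its single markers went both ways. In the deposited values every AA array was above every control array for miR-200a and miR-200b, but below for miR-194. The adjusted p in limma was 0.885 for each of these single markers. The others overlapped. On the normalized log2 scale, 9.98% of the tested probes had groups that did not overlap. The sums were 1210 to 1437 and 602 to 1646 for endothelium, and 51.3 to 66.3 and 8.36 to 75.7 for erythroid cells, with miR-144 at 4.48 at most. Neuronal markers summed to 5.73 at most, and those of striated muscle to 199.99 to 523 in controls and 85.1 to 603 in AA. The part of these cell types in the values of rno-miR-134 was not tested.

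**Figure D4:**
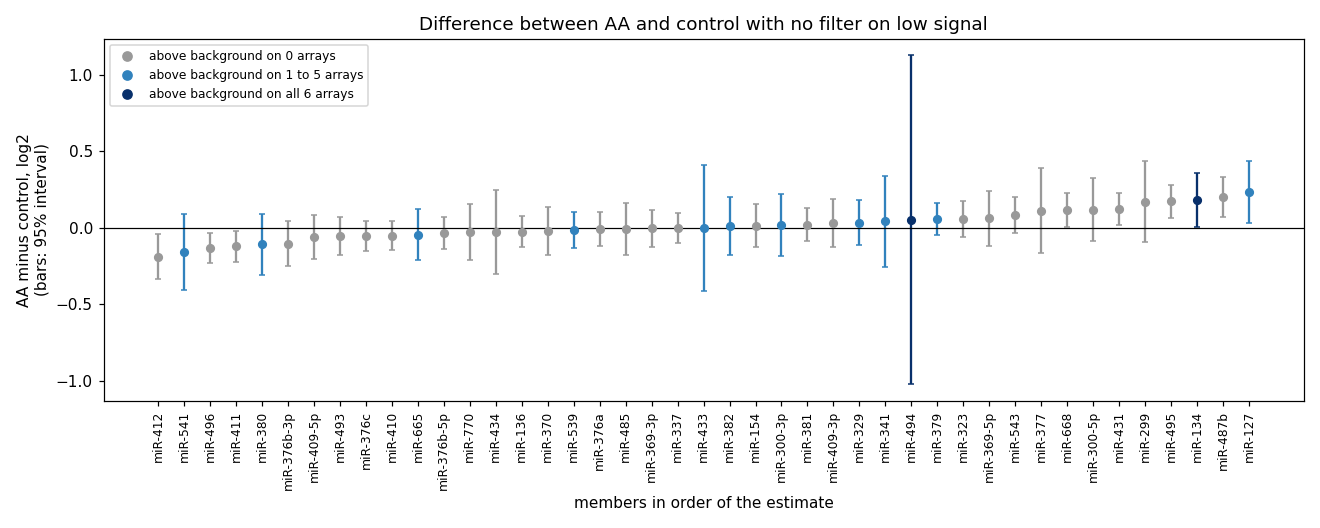
The difference between AA and control (log2, no filter on low signal) is plotted for each of the 43 members with its 95% interval from limma, in order of the estimate. Grey points are the 30 members not above background on any array, and the interval of miR-494, from -1.02 to 1.13, is the widest.

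Probes named for other species gave a second reading for 19 members. These were 23 probes whose target contains the member's sequence or lies inside it. Only hsa-miR-494 reached 32 on any array, and 7 of the 23 were well above background on at least 1. The change had the sign of the member's for 17 of 23. At an unadjusted p under 0.05 in limma there was 1 of the 23, bta-miR-369-5p, not well above background on any array, with a change of 0.19 (SE 0.046) where its member rno-miR-369-5p had 0.06. For 6 of the 9 members with an unadjusted p under 0.05 there were 7 such probes. None of the 7 had an unadjusted p under 0.05 in limma, all 7 had a smaller change than the member, and 6 had the same sign. The 9 members were picked by their own p on these same arrays, and that choice alone favours a smaller change in a second probe. For rno-miR-127 the longer oar-miR-127 probe differed by 0.0059 with an SE of 0.037, and for rno-miR-134 the shorter ggo-miR-134 probe differed by 0.086 with an SE of 0.13. The difference between a member and its second probe was not tested.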

How the data were processed

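Kidney RNA of 6 rats was read on custom vertebrate miRNA chips in 1 colour, Cy3, with 3 control and 3 AA arrays. Groups came from the sample labels. The deposited scanner files hold a linear intensity for each of 15066 spots (the median over its pixels, per the file headers), without background correction or normalization. A service provider made the normalized intensity that the authors deposited for 5559 probes, by background subtraction and a LOWESS filter. It is linear, and how spots were combined is not stated.

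Scanner intensity was corrected with normexp (offset 50), control and empty spots were left out, and log2 signal was quantile-normalized and averaged over spots. Probes at a deposited intensity of 32 on at least 1 array were tested. The probe outside that table was filtered on scanner signal above the empty-spot median. The groups were compared by lmFit and eBayes (limma 3.58.1, R 4.3.3), and p-values were adjusted over all tested probes by the Benjamini-Hochberg method at a threshold of 0.05. Each array held RNA of 1 animal, and 3 arrays per group limit the precision. The code was tested on simulated data.

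Sequences were matched to RefSeq on GRCr8. The members, the lists and the rules for naming miRNAs were chosen with earlier results of these data known. Every member is named, and values of every array are given for members at 32 and for those nearest to it. Lists covered star arms, further miRNAs of the locus, other imprinted loci and markers of kidney epithelium, endothelium, smooth muscle and fibroblasts, leukocytes, erythroid cells, neurons and striated muscle. For erythroid cells miR-451 reached 32 on 4 arrays and miR-144 on none, and for striated muscle miR-206 did so on 6 and miR-1 and miR-133a on none. Alternatives covered background correction, normalization, filter, test, weights, spots and left-out arrays.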

Additional observations from a re-analysis of the deposited data

How the results depend on the processing

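No paired analysis was possible because the groups share no replicate numbers. The planned slide block could not be fitted, since labels and files name no slide or scan. No member passed the adjusted p of 0.05 under any alternative run, with the filter or without it. With the filter, all tested probes gave 0 calls under cyclic loess, median scaling or no normalization, 44 under array quality weights, and 0 to 3 with 1 array left out (3 without AA replicate 20, 0 without any other array), against 2. The difference of rno-miR-494 changed sign without normalization (-0.15), under array quality weights (-0.036) and in 4 of 6 leave-outs (control replicate 13, control replicate 15, AA replicate 19 or AA replicate 21 out, range -0.18 to 0.47), with adjusted p between 0.851 and 0.991. Tested members above 0 thus numbered 0 without normalization, 0 under array quality weights and 0 to 1 with an array left out, against 2 with only probes well above background on all arrays and 21 with no filter, where 9 members had an unadjusted p under 0.05.

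Refits without the filter were chosen after seeing the data. Median scaling moved the median of all 5560 probes to 0.51, and that of the members to 0.51, with 43 members above 0 and 0 at an unadjusted p under 0.05. rno-miR-411, rno-miR-412 and rno-miR-496 were then at 0.44, 0.36 and 0.40, still below that shift. Without normalization 11 members were above 0 and 0 had an unadjusted p under 0.05, with a median of -0.057 and rno-miR-134 at -0.077. The deposited values gave a median of -0.031. With 1 array left out, members at an unadjusted p under 0.05 numbered 3 to 8, the fewest (3) when control replicate 15 was out and 4 each for control replicate 14 or AA replicate 20. The remaining 140 of 144 refits of the 9 members kept their sign, and the cause of the changes was not tested.

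Detection on at least 1 array was 6 members at a scanner signal of 32 above the empty spots and 13 at 3 robust SDs, against 1. Detection on all arrays was 0 by the scanner signal, 2 at 3 robust SDs and 0 at a deposited intensity of 64. Signal near background limits all members, rno-miR-494 included, which on AA replicate 20 was 20.7 above the empty spots where the limit of 3 robust SDs was 16.3.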
